A study of Homo sapiens with 9 samples.

Results

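The SF3B1 binding sites in 3 genes of membrane traffic, STXBP5, NBAS and PICALM, were examined in K562 cells. All 3 are among the 10 genes richest in sites, and they were chosen by their number of sites and sites per kb, as genes that act in membrane traffic with very different densities. A site belonged to a gene when its centre lay inside the RefSeq span of the gene on the strand of the gene. This gave 568 of the 96852 sites in the list, or 0.586%. The site numbers and densities of the 3 genes therefore describe how they were picked and support nothing else.

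K562 is an established human leukaemia cell line with erythroid features. Sites were mapped by iCLIP. Ultraviolet light (254 nm, 400 mJ per cm2) joins proteins to the RNA they touch, and sequencing marks the joined nucleotide after immunoprecipitation with 10 µg of antibody. The series holds 9 libraries in 3 groups, none with a treatment beyond the crosslinking. SF3B1 was precipitated from K562 cells with genotype SF3B1 wt/wt (3 libraries) and from cells with genotype SF3B1 K700E/wt (2 libraries), both from one supplier under different catalogue entries. U2AF2 was precipitated from SF3B1 wt/wt cells of another supplier (4 libraries). The labels do not say whether a genotype was represented by more than 1 clone. One merged list of SF3B1 sites was analysed, attached by the labels to the 3 SF3B1 wt/wt libraries. Its header speaks of sites reproduced by all replicates of either condition, so single sites are not assigned to a genotype here.

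SF3B1 is a subunit of the U2 small nuclear ribonucleoprotein, which binds the branch point of an intron upstream of the 3′ splice site during splicing. STXBP5, also called tomosyn, binds SNARE proteins of the plasma membrane and restrains the assembly of the SNARE complexes that fuse vesicles with it. NBAS is a subunit of the tether that receives vesicles returning from the Golgi to the endoplasmic reticulum, and it has also been linked to nonsense-mediated mRNA decay. PICALM is an adaptor that recruits clathrin to the plasma membrane and sorts small vesicle SNAREs and, in erythroid cells, the transferrin receptor into vesicles. PICALM is also known as a partner of MLLT10 in fusion genes of acute leukaemia.

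The list has 1 entry per site and no value per library. There is therefore no spread between replicates and no test across samples, and the depth of the libraries is unknown. Intervals below are 95% Wilson intervals for a share of sites; they cover counting only, and sites of one gene are not independent. RNA abundance was not measured in these files, so many sites and much RNA of a gene cannot be told apart. Among the erythroid marker genes reported here, TAL1 had 17 sites, GFI1B 10, GATA1 6 and EPOR 3, while KLF1, HBG1 and HBG2 had 0. None of the 7 B lymphoid and none of the 5 T lymphoid markers had a site, while 37.9% of all protein-coding genes had at least 1. The labels give the tissue as lymphoid, and whether that label is right was not tested.

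At least 1 site was found in 7609 of 20056 protein-coding genes, or 37.9%, at least 5 sites in 23.1%, and at least 100 sites in 0.184%. The median gene with a site had 7 sites and 0.199 sites per kb. STXBP5 ranked at position 3 by number of sites, NBAS at position 4 and PICALM at position 7. The gene at position 10 had 139 sites and the next gene, just outside the choice, had 137.

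STXBP5 lies on the plus strand of chromosome 6 (GRCh38, 147204417 to 147390473, a span of 186057 nt). It carried 210 sites, or 1.13 per kb of span. NBAS lies on the minus strand of chromosome 2 (14778909 to 15561334, 782426 nt) and carried 186 sites, or 0.238 per kb. PICALM lies on the minus strand of chromosome 11 (85957175 to 86069860, 112686 nt) and carried 172 sites, or 1.53 per kb. The 3 genes thus had similar numbers of sites on spans of very different length. No site lay on the opposite strand within any of the 3 spans.

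Other annotated genes overlap these spans in a few places. The antisense RNA gene STXBP5-AS1 shares 198 nt with the 5′ end of STXBP5, and this stretch held 0 sites. The RNA gene LOC124901421, whose strand is not given here, covers the last 1776 nt of STXBP5 and contained 4 of its sites. Within PICALM, LOC124902730, an RNA gene on the same strand, covers 21.5 kb and contained 11 sites. These 15 sites cannot be told apart from sites in the overlapping transcripts. The pseudogene RPS26P18 inside NBAS contained 0 sites.

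**Figure D1:**
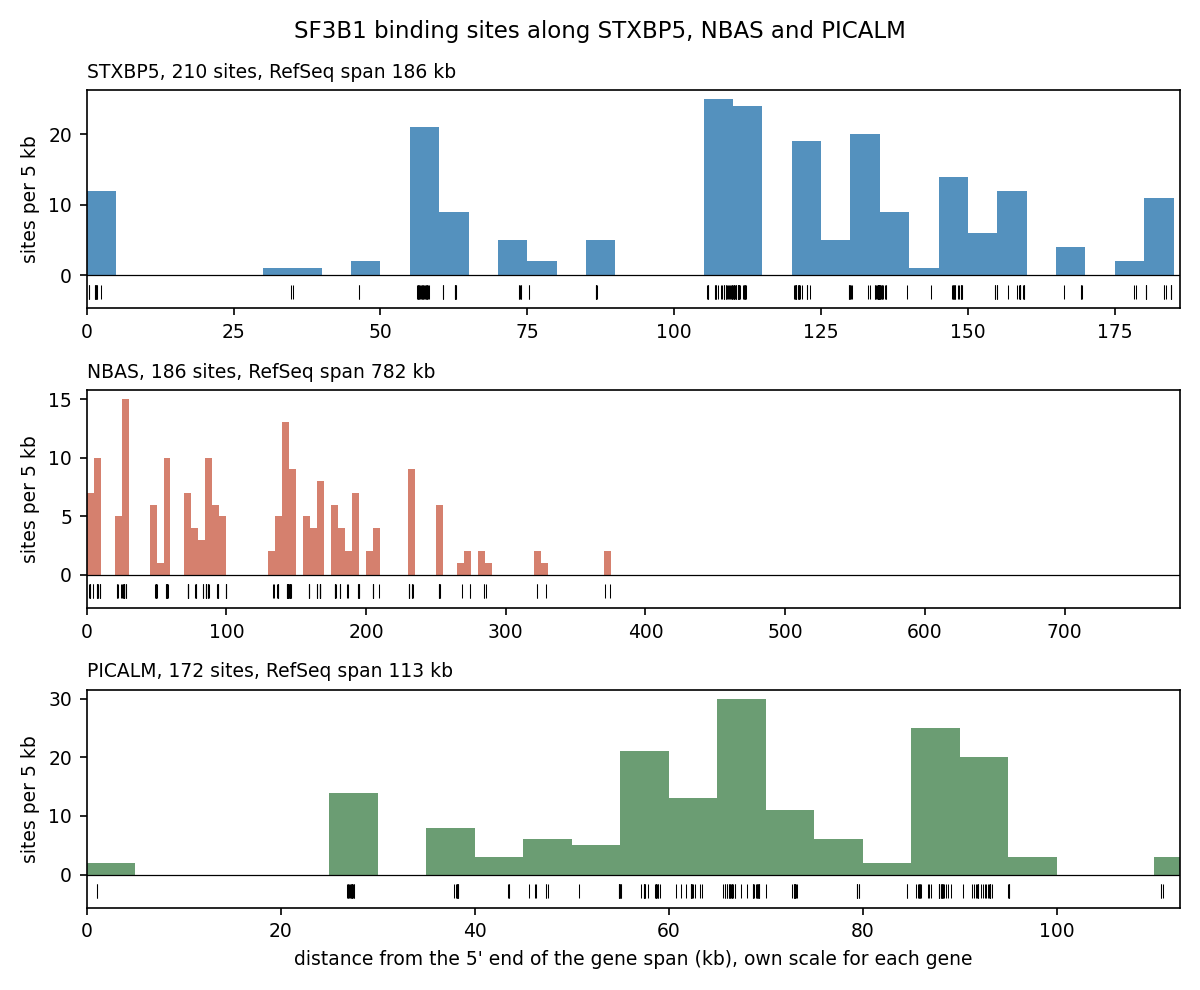
Number of SF3B1 sites per 5 kb (bars, left axis) and the position of every site (black ticks under the bars) along each gene, in kb from the 5′ end of the RefSeq span; the horizontal scale differs between genes. In NBAS the last site lies at 374 kb of a 782 kb span, while the sites of STXBP5 and PICALM reach almost to the 3′ end.

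The low density of NBAS depended in part on where its annotated span ends. Its last site lay 374 kb from the 5′ end of the span, and the following 408 kb held 0 sites. The stretch from the first to the last site covered 47.6% of the span, the smallest value among the 37 site-rich genes (those with 100 sites or more), whose median was 86.1%. In STXBP5 the same stretch covered 99.1% of the span and in PICALM 97.5%, with 1.43 kb and 1.76 kb left free at the 3′ end. Free 3′ ends of at least 100 kb occurred in 47 of the 4630 genes with at least 5 sites, and the median free end in these 4630 genes was 3.04 kb. Free ends of at least 400 kb occurred in 7 of them, with NBAS at rank 7. Only genes with a span longer than 400 kb can reach that limit, so this count also reflects the length of NBAS. RefSeq lists 11 transcripts for NBAS, of which 1 is a curated coding transcript and 9 are predicted. The table gives no limits for single transcripts, so which of them extends the span was not analysed here.

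Counted per kb between the first and the last site, NBAS had 0.499 sites per kb, STXBP5 1.14 and PICALM 1.57. This value for NBAS was 2.10 times its density over the full span, whereas the others hardly moved. The genes were picked for unlike densities, so their order by either length is no finding.

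**Figure D2:**
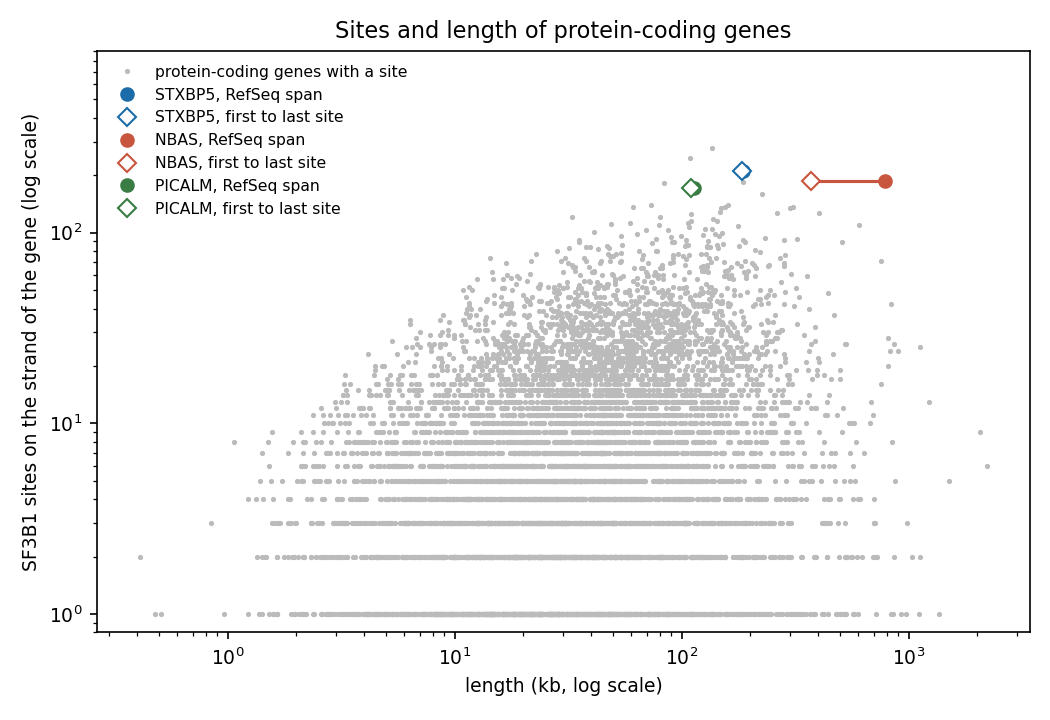
Number of SF3B1 sites on the strand of the gene against length in kb, both on log scales, for protein-coding genes with a site (grey). Filled circles place the 3 genes by RefSeq span and open diamonds by the stretch from first to last site; only NBAS moves visibly, from 782 kb to 373 kb.

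Sites no more than 1 kb apart were joined into blocks, to describe how the sites were grouped. STXBP5 had 25 blocks with a mean of 8.40 sites, PICALM had 17 with 10.1, and NBAS had 40 with 4.65. Between the first and the last site, PICALM had 1.44 times as many blocks per kb as NBAS and 2.18 times as many sites per block. For STXBP5 against NBAS these ratios were 1.26 and 1.81. Such a pair of ratios multiplies to the ratio of sites per kb over this stretch. The genes were picked for unlike densities, so the split is a description only. By blocks per kb of this stretch all 3 ranked low among the 37 site-rich genes (STXBP5 33, NBAS 35, PICALM 32). By sites per block their ranks were 9, 27 and 5. Within blocks, NBAS had 11.9 sites per kb, the highest value of the 37 site-rich genes (median 8.11). STXBP5 had 9.54 and PICALM 8.60 sites per kb within blocks. The width of a block runs from its first to its last site, so small blocks give high values. A block of 1 site counts as 5 nt, and NBAS had 7 of these, STXBP5 4 and PICALM 1. In the largest block of each gene, NBAS had 7.94 sites per kb, STXBP5 8.72 and PICALM 6.97. The blocks of NBAS together covered 15.6 kb, or 2.00% of its span, against 11.8% in STXBP5 and 17.8% in PICALM. The median distance from one block to the next was 5.52 kb in NBAS, 3.87 kb in STXBP5 and 2.94 kb in PICALM. At a coarser scale, 16 of 19 windows of 10 kb along STXBP5 held a site, as did 10 of 12 along PICALM and 22 of 79 along NBAS. The share of the span in blocks and the windows both include the empty 408 kb at the 3′ end of NBAS, which lowers its values.

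The sites of NBAS were spread over many small blocks, while those of the other genes were concentrated in a few large ones. In NBAS, 26 blocks of at least 2 sites were at most 600 nt wide, and they held 59.7% of its sites. The corresponding share was 24.3% in STXBP5 and 27.3% in PICALM. Blocks of 10 or more sites held 70.5% of the sites in STXBP5 (7 blocks), 76.2% in PICALM (7 blocks) and 24.7% in NBAS (3 blocks). The 5 largest blocks held 59.5%, 62.8% and 32.8% in the same order. For this last share, NBAS ranked 35 of 37 genes and the median was 56.6%.

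The largest block of STXBP5 held 45 sites in 5.16 kb (chromosome 6, 147311406 to 147316565), about 107 kb into the gene. Its next block in size held 26 sites (147337476 to 147340460). PICALM had a block of 31 sites in 4.45 kb (chromosome 11, 85999851 to 86004298) and one of 27 sites in 4.51 kb (85980755 to 85985266). The largest block of NBAS held 22 sites in 2.77 kb (chromosome 2, 15415267 to 15418037), and the second 14 sites (15534417 to 15536586). The richest 5 kb of any of the 3 genes lay in STXBP5 with 42 sites, against 31 in PICALM and 22 in NBAS; the median of the 37 genes was 28. By this local measure NBAS stood below the other 2 genes but inside the range of site-rich genes, which ran from 11 to 53. Whether these blocks coincide with exons, introns or 3′ splice sites was not analysed here, because the gene table gives outer limits only.

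Long stretches without sites separated the blocks, and their place differed between the genes. In STXBP5 the longest gap, 32.3 kb (chromosome 6, 147206821 to 147239114), followed directly after a first block of 12 sites. In PICALM the longest gap, 25.8 kb (chromosome 11, 86042981 to 86068785), likewise followed the first block, which had 2 sites. These gaps took up 17.4% and 22.9% of the spans. NBAS had its longest inner gap, 42.1 kb (chromosome 2, 15190452 to 15232559), near its last sites, and further gaps of 37.1 kb and 33.7 kb. In both STXBP5 and PICALM the longest empty stretch thus came directly after the first block, and in NBAS it did not.

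The first sites lay close to an annotated start in all 3 genes. The first site of STXBP5 was 318 nt from the 5′ end of its span, and 12 sites fell within 2.40 kb. PICALM has 2 starts in the RefSeq promoter table. Its first site lay 1066 nt from the outer start and 290 nt from the inner one (position 86069084). The first site of NBAS lay 1795 nt from its start. Among the 37 genes with at least 100 sites the median distance was 9196 nt, so the first sites of the 3 genes were all nearer than the median, at ranks 33, 30 and 31 from the farthest in the order STXBP5, NBAS, PICALM. No site lay in the promoter windows of the 3 genes (250 nt before to 50 nt after each start). Of 22078 such windows of protein-coding genes, 175 held a site on the strand of the gene, or 0.793%.

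**Figure D3:**
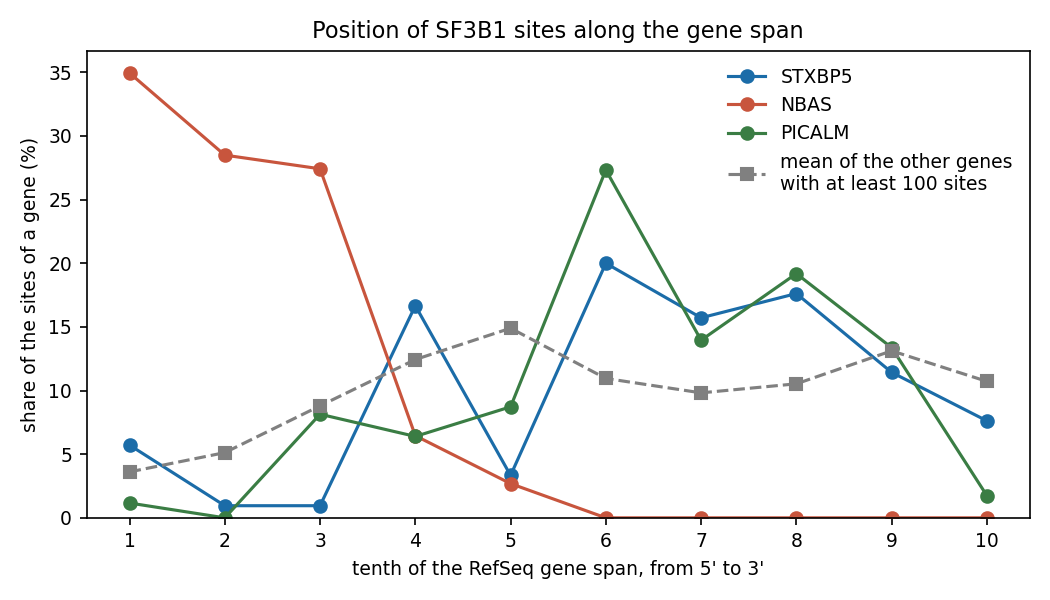
Share of the sites of a gene (%) in each of 10 equal parts of the RefSeq span, from 5′ to 3′, for the 3 genes and as the mean of the other 34 genes with at least 100 sites (grey, dashed). NBAS falls from 34.9% in the first part to 0 from the sixth on, while STXBP5 and PICALM peak in the sixth part at 20% and 27.3%.

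Along the gene, STXBP5 and PICALM were weighted to the 3′ side and NBAS to the 5′ side. Beyond the midpoint of the span lay 152 of 210 sites in STXBP5 (72.4%, interval 65.97 to 78.0) and 130 of 172 in PICALM (75.6%, interval 68.6 to 81.4). In NBAS 0 of 186 sites lay there (0%, interval 0 to 2.02). The same share was 63.6% over all sites of the 4630 genes with at least 5 sites, and 53.1% over those of the 37 site-rich genes. The median site of NBAS lay 137 kb into the gene, that of STXBP5 112 kb and that of PICALM 66.7 kb. Of 10 equal parts of the span, the first held 34.9% of the sites of NBAS, 5.71% of those of STXBP5 and 1.16% of those of PICALM.

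Leaving out the empty 3′ end of NBAS raised its share beyond the midpoint, but the share stayed low among the site-rich genes. When the midpoint was taken between the first and the last site, 39 of its 186 sites (21.0%) lay beyond it, rank 34 of the 37 genes, against a median of 46.6%. With the same midpoint STXBP5 kept 72.4% (rank 5) and PICALM 75.6% (rank 2). In NBAS a few sparse sites, which follow gaps of 37.1 kb and 42.1 kb, set the end of this stretch. The 21.0% therefore cannot tell a 5′ weighting from a sparse 3′ part. Of the sites of NBAS, 160 (86.0%) lay in its first 210 kb. The last part of the gene was sparse in PICALM too, with 3 sites (1.74%) in the final 10% of the span. STXBP5 had 16 sites there (7.62%), and the site-rich genes together had 9.50%.

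Neighbouring sites were close in all 3 genes. The median distance between neighbours was 80 nt in STXBP5, 75 nt in NBAS and 75 nt in PICALM, against a median of 125 nt over the 37 genes. A neighbour within 60 nt was found for 71.9% of the sites in STXBP5 (interval 65.5 to 77.5), 74.2% in NBAS (67.5 to 79.9) and 70.3% in PICALM (63.1 to 76.7). These intervals overlap widely. Over all sites of genes with at least 5 sites the share was 61.7%, and over the site-rich genes 66.4%. Linking sites at most 60 nt apart gave 111 clusters in STXBP5, 95 in NBAS and 92 in PICALM. Of these, 59, 48 and 51 consisted of 1 site. The upper quartile of the distance to the next site separated the genes more than the median did, with 439 nt in NBAS, 221 nt in STXBP5 and 213 nt in PICALM.

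The largest clusters give a picture of the crowding. In STXBP5, 8 sites lay within 194 nt (chromosome 6, 147339280 to 147339473). In NBAS, 7 sites lay within 219 nt (chromosome 2, 15504052 to 15504270). PICALM had 6 sites within 69 nt (chromosome 11, 86031602 to 86031670) and 6 within 124 nt (86042454 to 86042577). The last of these lies inside the overlap with LOC124902730.

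**Figure D4:**
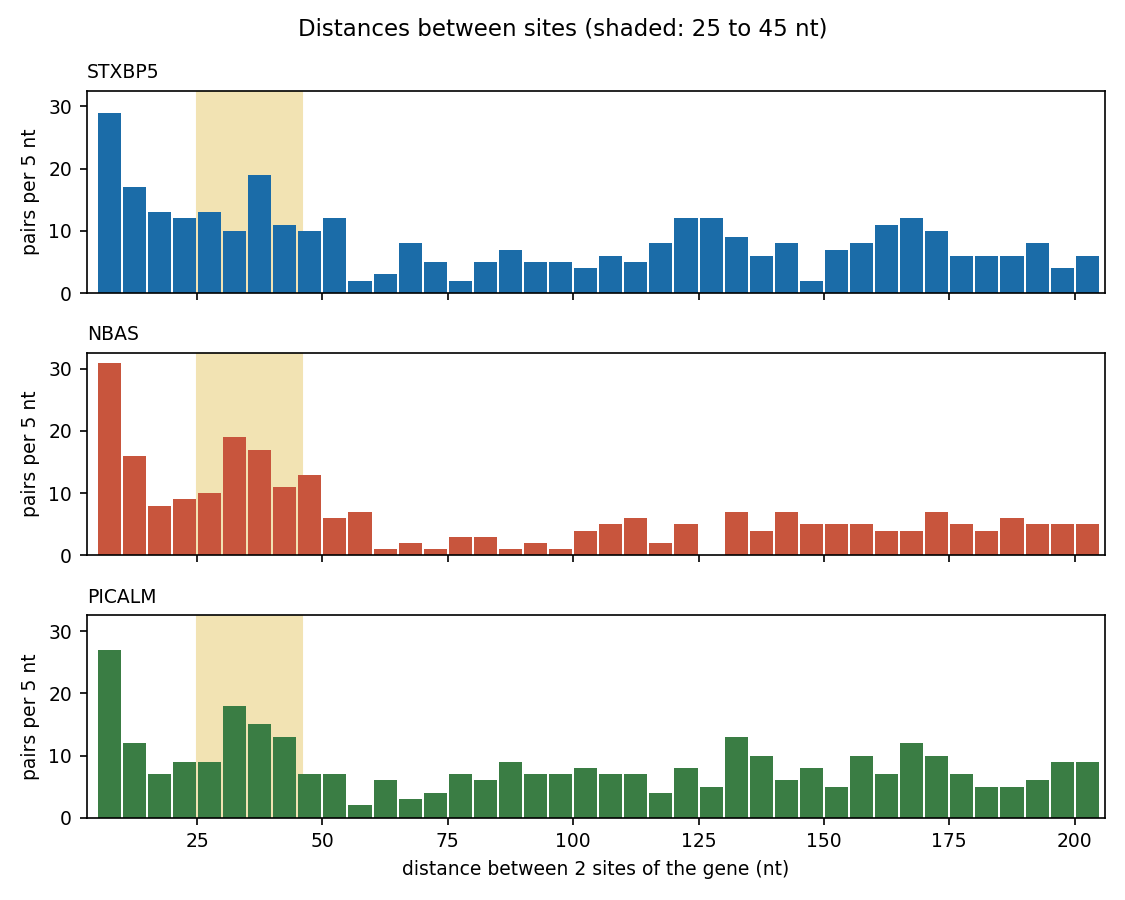
Number of pairs of sites per 5 nt of distance, for all pairs of sites of a gene up to 204 nt apart; the shaded band marks 25 to 45 nt. All 3 genes have many pairs under 10 nt; pairs per nt in the band exceed those at 13 to 24 nt in NBAS and PICALM but not in STXBP5, and NBAS has few pairs between 67 and 100 nt (12, against 34 in STXBP5 and 43 in PICALM).

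Pairs of sites 25 to 45 nt apart, the spacing that is frequent across the list, were present in each gene. There were 54 such pairs in STXBP5, 61 in NBAS and 55 in PICALM, against 30, 25 and 23 pairs at distances of 46 to 66 nt, a span as wide. The ratios were 1.80, 2.44 and 2.39. Toward shorter distances the picture differed between the genes. Per nt of distance, NBAS had 1.75 pairs at 13 to 24 nt and 2.90 at 25 to 45 nt, and PICALM had 1.58 and 2.62. STXBP5 had 2.75 and 2.57, so its pairs were not more frequent at 25 to 45 nt than at 13 to 24 nt. All 3 ratios were below the median of the 37 site-rich genes (2.87) and below the ratio over all sites of genes with at least 5 sites (3.53). After summing over 3 adjacent distances, the highest sum from 13 to 100 nt lay at 34 nt in NBAS, with 13 pairs. In STXBP5 the highest sum, also 13 pairs, was reached at both 36 and 37 nt. In PICALM 30, 34, 38 and 40 nt tied with 11 pairs, so no single distance was the most frequent there. A partner 25 to 45 nt away was found for 37.1% of the sites in STXBP5 (interval 30.9 to 43.9), 50.5% in NBAS (43.4 to 57.6) and 46.5% in PICALM (39.2 to 54.0). Over all genes with at least 5 sites this share was 37.8%, and over the site-rich genes 40.7%. NBAS ranked 3 of the 37 genes by this share and STXBP5 ranked 28.

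Most blocks contained such a pair. Of the blocks with at least 2 sites, 28 of 33 in NBAS, 16 of 21 in STXBP5 and 14 of 16 in PICALM held a pair 25 to 45 nt apart. The same count was not made for other genes or other distances, and blocks with many sites hold pairs at many distances. These counts are therefore no trait of the 3 genes. The first block of STXBP5, 12 sites within 2.09 kb of its start region, held 0. Some clusters fell into just 2 tight elements (neighbours within 12 nt joined) whose mean positions were 25 to 45 nt apart. They numbered 22 in NBAS, 17 in PICALM and 15 in STXBP5. Their upstream elements held 77 sites in all and their downstream elements 76. The median distance between the elements was 35 nt in STXBP5, 35.3 nt in NBAS and 35 nt in PICALM. Only distances of 25 to 45 nt were admitted, and evenly spread distances would also give a median near 35 nt. These medians therefore show no preferred spacing.

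At longer distances the genes differed in shape. Pairs 140 to 180 nt apart numbered 66 in STXBP5, 43 in NBAS and 68 in PICALM, against 41, 15 and 50 pairs 60 to 100 nt apart. The ratio was 1.61, 2.87 and 1.36, and its median over the 37 site-rich genes was 1.69. NBAS, at rank 4, had a nearly empty span from 67 to 100 nt, with 0.353 pairs per nt of distance. STXBP5 had 1.00 and PICALM 1.26 pairs per nt there. Over all sites of STXBP5 and of PICALM, pairs occurred in every step of 5 nt up to 204 nt. In NBAS only the step from 125 to 129 nt was empty. Pairs were not counted separately within the large blocks.

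Other genes of the same pathways were described from 3 lists with 55 genes in all. At least 1 site was found in 46 of them, or 83.6%, against 37.9% of all protein-coding genes. At least 5 sites were found in 33 of the 55, against 23.1% of all protein-coding genes. The median of the 55 list genes was 5 sites. The lists were chosen with earlier results of these data known. They consist largely of genes that many cell types express, and expression was not measured here, so these differences are a description. The counts per list below have the same 37.9% of all protein-coding genes as their background.

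In the SNARE list, which holds SNARE proteins of the plasma membrane and of other membranes with their regulators, 15 of 20 genes had a site. The highest was SNAP23, a SNARE of the plasma membrane in non-neuronal cells, with 19 sites. STXBP3, which binds syntaxins of the plasma membrane, had 18, and STX7, a syntaxin of endosomes, had 15. STXBP5L, the close relative of STXBP5, had 0 sites on a span of 517 kb, and STX4, STXBP6, VAMP7 and VPS33A also had 0.

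Of the 13 partners of NBAS and subunits of the COPI coat that forms its vesicles, 12 had a site. COPA, the alpha subunit of the coat, had 86 sites, or 1.57 per kb, and COPB2 had 37. RINT1 and ZW10, the other subunits of the tether, had 27 and 5 sites. SCFD1, which regulates SNARE assembly at this step, had 32. SCFD2 had 0 on 493 kb.

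The clathrin list had sites in 19 of 22 genes. CLTC, the clathrin heavy chain that PICALM recruits, had 80 sites, and EPS15, an endocytic scaffold, had 60. AP2B1, a subunit of the adaptor AP2, had 49, and DNM2, the GTPase that cuts vesicles free, had 41. AP2M1, another AP2 subunit, had the highest density of the list, 2.17 per kb with 20 sites on 9.24 kb. SNAP91, the neuronal relative of PICALM, had 0 sites on 157 kb, as did HIP1 and CLTB. How much SNAP91 or STXBP5L RNA the cells held was not measured.

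**Figure D5:**
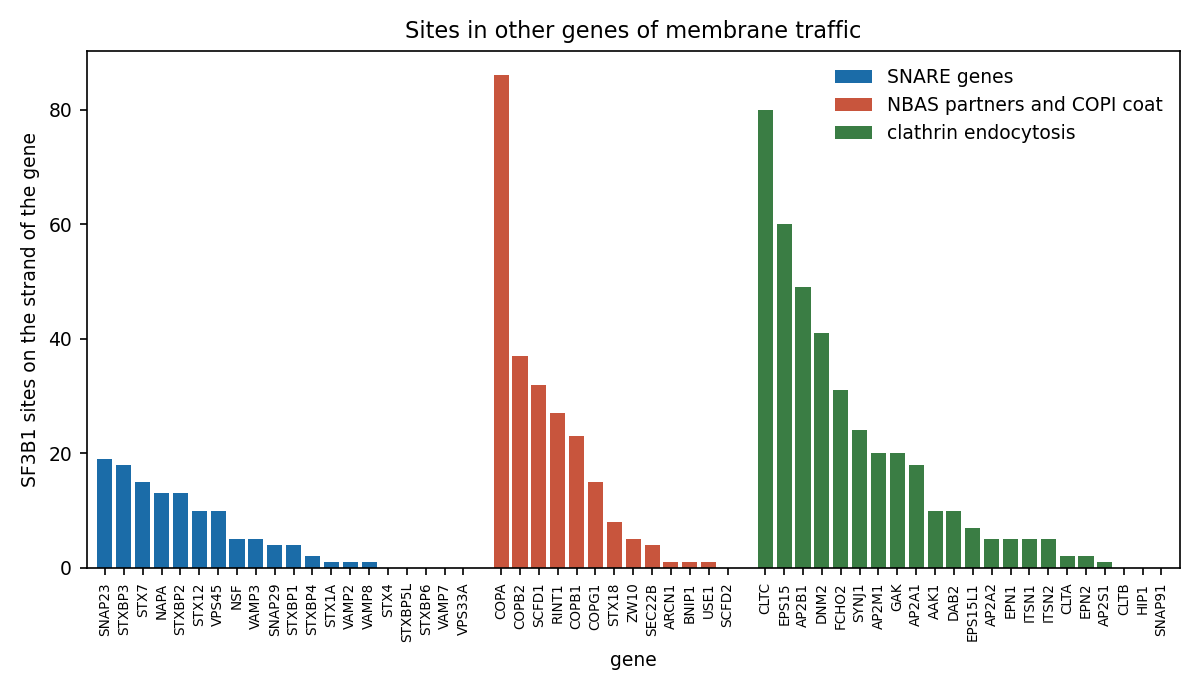
Number of SF3B1 sites on the strand of the gene for the 55 genes of the 3 lists, ordered by sites within each list. COPA (86 sites) and CLTC (80) stand highest, all SNARE genes have 19 or fewer, and 9 genes have 0.

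The profile of each gene over 10 equal parts of its span was compared with those of the 269 other genes that had 50 sites or more. The measure was the shared part of the profiles, which is 100% for identical profiles. STXBP5 was most like ZNF207 (83.0%), HERC1 (82.4%) and CLASP2 (80.2%), with a median of 57.9% over all 269. PICALM was most like UBR2 (85.2%), TOP2B (84.2%) and NUP155 (81.6%), with a median of 56.8%. NBAS was most like TAF1 (71.6%), POLA1 (70.4%) and NUP214 (63.8%), with a median of only 17.8%. STXBP5 and PICALM shared 76.6% of their profiles with each other, rank 15 for STXBP5; with 20 equal parts this fell to 50.4%, rank 75, near the median of 44.1%. NBAS shared 16.8% with STXBP5 and 18.4% with PICALM. Parts 6 to 10 of its span held 0 sites, which limits what NBAS can share with genes that have sites there. No profile between the first and the last site was made, so the low values also reflect where the span ends. With 5 and with 20 equal parts, none of the 3 nearest genes of STXBP5 recurred. Of those of PICALM, 0 recurred with 5 parts and 1, UBR2, with 20, whereas POLA1 was among the nearest of NBAS in every case.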

How the data were processed

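The deposited list gives, per the file headers, merged SF3B1 binding sites 5 nt wide that the replicates reproduce; its score, deposited as 0 in every entry, was not used, and other deposited entries beside position and strand are running region numbers. The submitters' processing notes name FastQC 0.11.8, STAR 2.7.3a and 2.6.1b, UMI-tools 1.0.0, bedtools 2.27.1 and the builds GRCh38.p10 and GRCh38.p12, with no roles; the site caller is not given in the sources used here. Sites in scarce RNA may be missing, since replicates had to reproduce them.

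Sites were assigned by their centre to RefSeq spans (GRCh38.p14). The strand of a gene came from the RefSeq promoter table (15843 genes) or from the strand with more sites (4213 genes). Genes overlapping on one strand each count a shared site. The 3 genes and the lists were chosen with earlier results of these data known. Named genes are the 3 genes, list genes with the most and the fewest sites, and the 3 nearest profiles of each; others were named after their values were seen. No test was made. The counting code was tested on simulated data. SciPy 1.17.1, pandas 2.3.3, NumPy 2.4.6, matplotlib 3.10.9 and Python 3.11.15 were used. Alternatives covered merged sites, 1 site per region number, other distances, windows and lengths. No genome sequence or exon annotation was used here. One erythroid marker is not reported here.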

Additional observations from a re-analysis of the deposited data

How the results depend on the processing

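The number of sites per gene stayed within 1.5 times under every recount, with 185 to 210 in STXBP5, 170 to 186 in NBAS and 154 to 172 in PICALM. The share of sites beyond the midpoint moved only in NBAS, to 21.0% between first and last site. Density moved in NBAS to 0.499 per kb over that stretch; counting clusters gave 0.597 per kb in STXBP5, 0.121 in NBAS and 0.816 in PICALM, since clusters are fewer than sites. The share with a close neighbour was 57.1%, 58.1% and 55.2% at 30 nt, in the order STXBP5, NBAS, PICALM; it was 77.9% in PICALM at 100 nt and 64.9% in STXBP5 with 1 site per region number. A partner 31 to 41 nt away was found for 24.8%, 35.5% and 33.7%, since the span is narrower. Windows of 10 kb with a site made up 84.2%, 27.8% and 83.3%; windows of 20 kb gave 100%, 40.0% and 100%, and windows of 5 kb gave 57.9% in STXBP5. Of the 55 list genes, 46 had a site also with 1 site per region number. Profiles in 5 and 20 parts were added after seeing the data. Distance to 3′ splice sites was not run, since no exons were given. No replicate could be left out of a merged list. No paired analysis was possible because replicates are merged. As reads per site are not given, a stretch with 0 sites cannot be told from one whose RNA was too rare.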
